A study of Mus musculus with 6 samples.

Results

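The primitive endoderm genes Gata4, Gata6, Sox7, Sox17, Pdgfra, Dab2, Ttr, Afp and Lrp2 were read in mouse embryonic stem cells with and without loss of the Polycomb proteins Rybp and Yaf2. Members were every probe set annotated to one of these genes alone, which gave 28 probe sets for the 9 genes, of 45037 probe sets and 18193 genes in all. Every such probe set was kept whatever its values, but the 9 genes were chosen with earlier results of these data known. Expression was measured on 6 Affymetrix arrays, 1 for each of 3 clones with and without 4-hydroxytamoxifen (OHT). The cells had a 129/B6 hybrid background and were grown with leukaemia inhibitory factor on feeder fibroblasts or on gelatin, and the labels do not say which surface each sample had. The Yaf2kd OHT+ group held clones 3086 and 3087, with mutant Yaf2 (a knockdown in the titles) and Rybp depleted by OHT at 0.8 µM for 24 hours. The Yaf2wt OHT+ group was clone 3031, with wild-type Yaf2 and Rybp depleted in the same way. The Yaf2kd OHT- group held clones 3086 and 3087 without treatment, and the Yaf2wt OHT- group was clone 3031 without treatment, wild type for both genes. Yaf2wt rests on 1 clone, so Yaf2 status and clone cannot be told apart, and p-values measure the spread between these few arrays. OHT itself and Rybp loss cannot be told apart either, since no group had OHT with Rybp intact.

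The targeted genes were checked first. The 2 probe sets shared by Rybp and its pseudogene Rybp-ps moved in opposite directions, at 85.8 ± 27.7 in OHT+ and 2014 ± 239 in OHT- arrays (SD, n = 3 each) for 1421111_at, and at 3162 ± 332 in OHT+ and 242 ± 82.4 in OHT- arrays for 1428219_at. The labels do not say which part of the gene either one reads. The brighter Yaf2 probe set averaged 276 ± 27.2 in Yaf2kd arrays (n = 4) and 793 ± 33.6 in Yaf2wt arrays (n = 2). Values are linear intensity units after the deposited normalization. A probe set was called dim where its mean log2 signal lay under the log2 of 106 units, the 40th percentile over genes. One at or above it was called readable. Means printed in units are of linear values. All 9 embryonic stem cell markers were readable. Below the limit the median standard deviation within groups was 0.73 on the log2 scale, against 0.18 above it. Markers of feeder fibroblasts summed to 5791 to 9364 units over 17 measured genes in OHT+ arrays and to 4970 to 6673 units in OHT- arrays. Most of each sum was 1 gene, Acta2, at 3191 to 5468 units in OHT+ and 2709 to 4069 units in OHT- arrays. Of the 17 markers, 13 were higher with OHT, 10 of them in all 3 clones, while 8 of the 17 were readable and none was at 0. Their part in the results below was not tested.

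Primitive endoderm is the outer of the cell layers that form from the inner cell mass of the blastocyst, next to the epiblast from which embryonic stem cells derive. FGF signalling drives it, and the transcription factors Gata6, Gata4, Sox17 and Sox7 run its programme while Nanog opposes Gata6. Its descendants are the visceral endoderm, which takes up and secretes nutrients for the embryo, and the parietal endoderm, which lays down a basement membrane. Polycomb complexes, of which Rybp and Yaf2 are subunits, hold many developmental regulators silent in embryonic stem cells.

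Upstream sequence is shown for Lrp2 and Dab2, the member genes that were lower with OHT in all 3 clones on their readable probe sets. Each run is the 250 bases before an annotated start, 5′ to 3′ on the strand of the gene, from RefSeq (GRCm38.p6). The windows lie at chr2:69586030-69586279 (- strand) for Lrp2, and at chr15:6299539-6299788 and chr15:6386498-6386747 (+ strand) for the starts of Dab2. Capitals mark matches to the motifs searched.
Lrp2: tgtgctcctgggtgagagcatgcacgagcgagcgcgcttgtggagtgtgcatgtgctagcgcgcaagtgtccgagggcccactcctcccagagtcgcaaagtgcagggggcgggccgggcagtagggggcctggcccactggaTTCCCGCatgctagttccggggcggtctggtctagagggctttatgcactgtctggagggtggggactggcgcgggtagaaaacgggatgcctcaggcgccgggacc
Dab2, first start: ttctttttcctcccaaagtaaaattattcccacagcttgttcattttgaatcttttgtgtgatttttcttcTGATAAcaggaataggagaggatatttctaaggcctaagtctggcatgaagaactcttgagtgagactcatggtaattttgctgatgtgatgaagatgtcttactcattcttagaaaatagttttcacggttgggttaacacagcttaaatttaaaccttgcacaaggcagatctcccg
Dab2, second start: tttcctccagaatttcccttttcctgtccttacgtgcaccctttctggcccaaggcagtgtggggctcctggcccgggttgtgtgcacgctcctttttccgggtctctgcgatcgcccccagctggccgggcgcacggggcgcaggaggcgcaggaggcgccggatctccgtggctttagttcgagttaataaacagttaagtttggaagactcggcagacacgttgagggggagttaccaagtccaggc
The letters searched, on both strands, were AGATAA and TGATAA (bound by GATA factors), CACGTG (an E-box) and TTCCCGC (bound by E2F factors). Of 32851 upstream windows in the table, 16.6% held AGATAA or TGATAA, 6.02% held CACGTG and 3.82% held TTCCCGC. The Lrp2 window held 1 match, TTCCCGC, starting 107 bases before the start, and the first Dab2 window held 1, TGATAA, starting 179 bases before it. No match overlapped another, and the second Dab2 window held none. The Lrp2 window was rich in CpG, with 18 CpG and 66.4% GC, more CpG than 78.3% of all windows, where the median window had 6 CpG and 52.4% GC. The second Dab2 window had 17 CpG and the first had 2. Matches are a description of the sequence and say nothing of binding in these cells. Upstream windows were read for 4 of the 9 genes. The other 2 genes read were Afp, with 1 CpG, and Pdgfra, with 4 CpG, and neither window held a match.

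Most of the primitive endoderm genes had dim signal. Of the 28 probe sets, 22 were dim, 16 of these under the limit on all 6 arrays. The 6 readable probe sets belonged to Lrp2 (2), Dab2 (3) and Gata4 (1). All probe sets of Gata6, Sox17, Sox7, Pdgfra, Ttr and Afp were dim. Their differences rest on signal under the limit, where the median spread between arrays was wider.

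**Figure D1:**
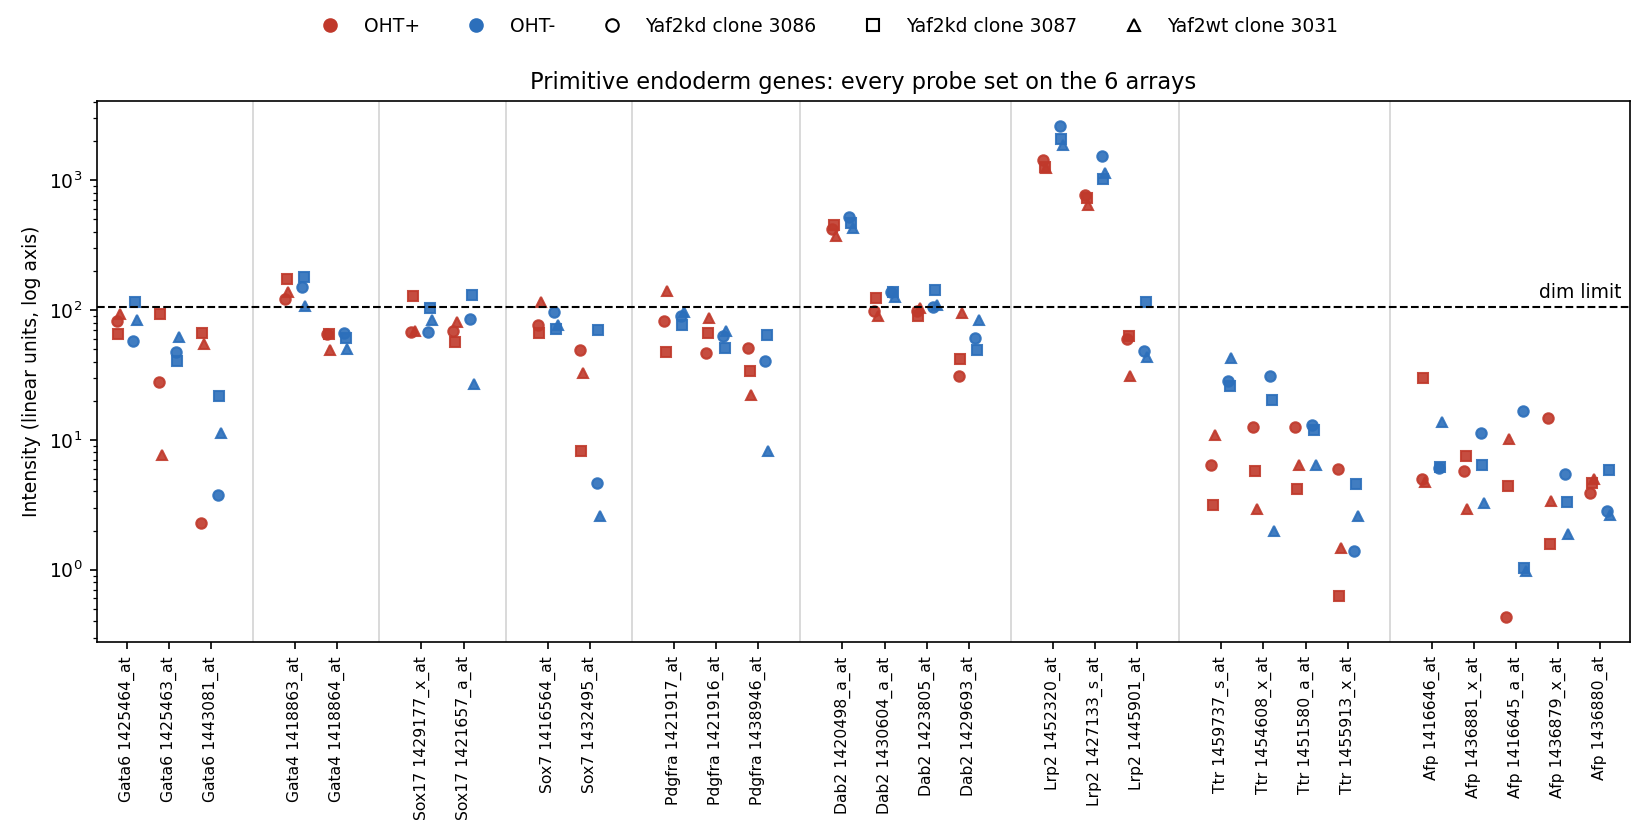
Intensity (linear units on a log axis) of each of the 28 probe sets on the 6 arrays, with OHT+ arrays in red left of OHT- arrays in blue and 1 marker shape per clone. The dashed line is the dim limit of 106 units, and only probe sets of Lrp2, Dab2 and Gata4 have a mean signal at or above it.

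OHT over the 3 clones asked how these genes differed after the treatment given to deplete Rybp. Lrp2 was lower with OHT on both of its readable probe sets in all 3 clones, at 60.0% and 58.1% of the OHT- mean, and Dab2 was lower in all 3 clones on its 3 readable probe sets by smaller amounts. Gata4 averaged 144 ± 27.7 units in OHT+ and 145 ± 35.7 units in OHT- arrays (SD, n = 3 each). After Benjamini-Hochberg adjustment over all 45037 probe sets limma called 0 of the 28, and 0% of all probe sets (the call background). The lowest adjusted p among the 28 was 0.443. At an unadjusted p under 0.05 there were 3 of 28, against 6.56% of all probe sets. Differences below are log2 of OHT+ over OHT-, from limma unless a single clone is named.

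Among the transcription factors, Gata4, a zinc finger factor of primitive endoderm and heart, was the one gene with a readable probe set. Gata4 1418863_at read 120, 174 and 137 units in OHT+ clones 3086, 3087 and 3031, against 150, 178 and 107 units in the same clones without OHT. The groups overlapped fully, with clone 3031 higher and both Yaf2kd clones lower with OHT. The limma difference was 0.00241 ± 0.24 (SE), with a 95% interval of -0.64 to 0.64 and an adjusted p of 0.999. The second Gata4 probe set, 1418864_at, was dim at 49.4 to 65.9 units over the 6 arrays.

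Gata6, the factor that starts the primitive endoderm programme, was dim on its 3 probe sets, which read 2.29 to 115 units. The brightest, Gata6 1425464_at, read 82.2, 64.7 and 93.2 units in OHT+ clones 3086, 3087 and 3031, against 57.5, 115 and 83.1 units in OHT- arrays of the same clones. The groups overlapped, and the value over the limit was that of OHT- clone 3087. Its difference was -0.05 ± 0.33 (SE), and the interval of -0.93 to 0.83 allows a change of nearly 1 log2 unit either way. The dim Gata6 probe set 1443081_at spanned 2.29 to 66.8 units in OHT+ arrays and 3.79 to 21.6 units in OHT- arrays, a wider range with OHT than without.

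Sox17 and Sox7 encode related HMG-box factors that follow Gata6 in the lineage. Sox17 1429177_x_at read 67.3, 127 and 68.8 units in OHT+ clones 3086, 3087 and 3031, against 67.9, 103 and 83.5 units in OHT- arrays. Clone 3087 was the highest in either state, and the groups overlapped. The other Sox17 probe set, 1421657_a_at, read 69.3, 56.3 and 81.2 units in OHT+ arrays, against 85.9, 130 and 26.9 units in OHT- arrays, so both Yaf2kd clones were lower and the Yaf2wt clone higher with OHT. Sox7 1416564_at read 76.9, 66.5 and 116 units in OHT+ clones 3086, 3087 and 3031, against 96.3, 71.7 and 76.4 units in OHT- arrays. It was higher with OHT in clone 3031 alone. The second Sox7 probe set, 1432495_at, ran between 2.59 and 69.6 units.

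Pdgfra encodes a receptor for platelet-derived growth factor that marks primitive endoderm and also many fibroblasts. Pdgfra 1421917_at read 82.4, 47.6 and 140 units in OHT+ clones 3086, 3087 and 3031, against 90.2, 76.3 and 96.0 units in OHT- arrays. The Yaf2wt OHT+ array was the one above the dim limit, and the groups overlapped. The difference was -0.0894 ± 0.34 (SE, adjusted p 0.974). The other 2 probe sets read 8.14 to 87.0 units over the arrays.

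Lrp2 and Dab2 act together in uptake at the surface of the visceral endoderm. Lrp2 encodes megalin, a large receptor of the LDL receptor family that takes up many ligands, and Dab2 encodes an adaptor that links such receptors to clathrin. They were the brightest members, with Lrp2 well above Dab2 on every array, though signals of different probe sets are not comparable as amounts. Lrp2 1452320_at read 1439, 1258 and 1242 units in OHT+ clones 3086, 3087 and 3031, against 2621, 2081 and 1869 units in OHT- arrays of the same clones. Every OHT+ value lay below every OHT- value. The single-clone differences were -0.86, -0.73 and -0.59 in the same order. The limma difference was -0.73 ± 0.17 (SE), with a 95% interval of -1.19 to -0.26, an unadjusted p of 0.0112 and an adjusted p of 0.651. In RNA from whole cultures, fewer cells with Lrp2 and less Lrp2 RNA per cell cannot be told apart. The summed feeder markers, mostly Acta2 signal, were higher with OHT in each of these clones, and their part in this difference was not tested.

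The second readable probe set gave a difference of similar size. Lrp2 1427133_s_at read 774, 727 and 638 units in OHT+ clones 3086, 3087 and 3031, against 1530, 1023 and 1132 units in OHT- arrays. Again the groups did not overlap. The single-clone differences were -0.98, -0.49 and -0.83, and the limma difference was -0.77 ± 0.21 (SE, 95% interval -1.32 to -0.21, adjusted p 0.686). Both probe sets read the same RNA samples, so they are not independent repeats. The third Lrp2 probe set, 1445901_at, was dim, with 59.4, 62.9 and 31.1 units in OHT+ arrays, against 48.2, 115 and 43.7 units in OHT- arrays, and these overlapped.

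Whether Lrp2 passed depended on the fit. With dim probe sets left out and an intensity trend in the variance prior, a combination chosen after seeing the data, limma called 97 of 21769 probe sets, or 0.446%, of which 26 (0.119%) were lower with OHT. Lrp2 1452320_at was among them, with an adjusted p of 0.0410, and it was 1 of the 6 readable member probe sets. In that fit both Lrp2 probe sets passed when the second Yaf2kd OHT- array was left out, and 0 member probe sets passed when any one of the other 5 arrays was.

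Dab2 1420498_a_at read 417, 449 and 368 units in OHT+ clones 3086, 3087 and 3031, against 515, 465 and 425 units in OHT- arrays. It was lower with OHT within each clone, yet the groups overlapped. The limma difference was -0.19 ± 0.14 (SE, 95% interval -0.55 to 0.18, adjusted p 0.850). Dab2 1430604_a_at read 98.6, 123 and 90.0 units in OHT+ arrays, against 137, 138 and 125 units in OHT- arrays, and Dab2 1423805_at read 97.6, 89.4 and 103 units in OHT+ arrays, against 106, 143 and 110 units in OHT- arrays. On both probe sets the OHT+ arrays lay below all OHT- arrays, with differences of -0.37 ± 0.16 and -0.29 ± 0.19 (SE) and adjusted p of 0.775 and 0.838. Both sat close to the dim limit, and their OHT+ means of 104 and 96.7 units were under it. The dim Dab2 probe set 1429693_at read 31.2 to 94.8 units and overlapped.

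**Figure D2:**
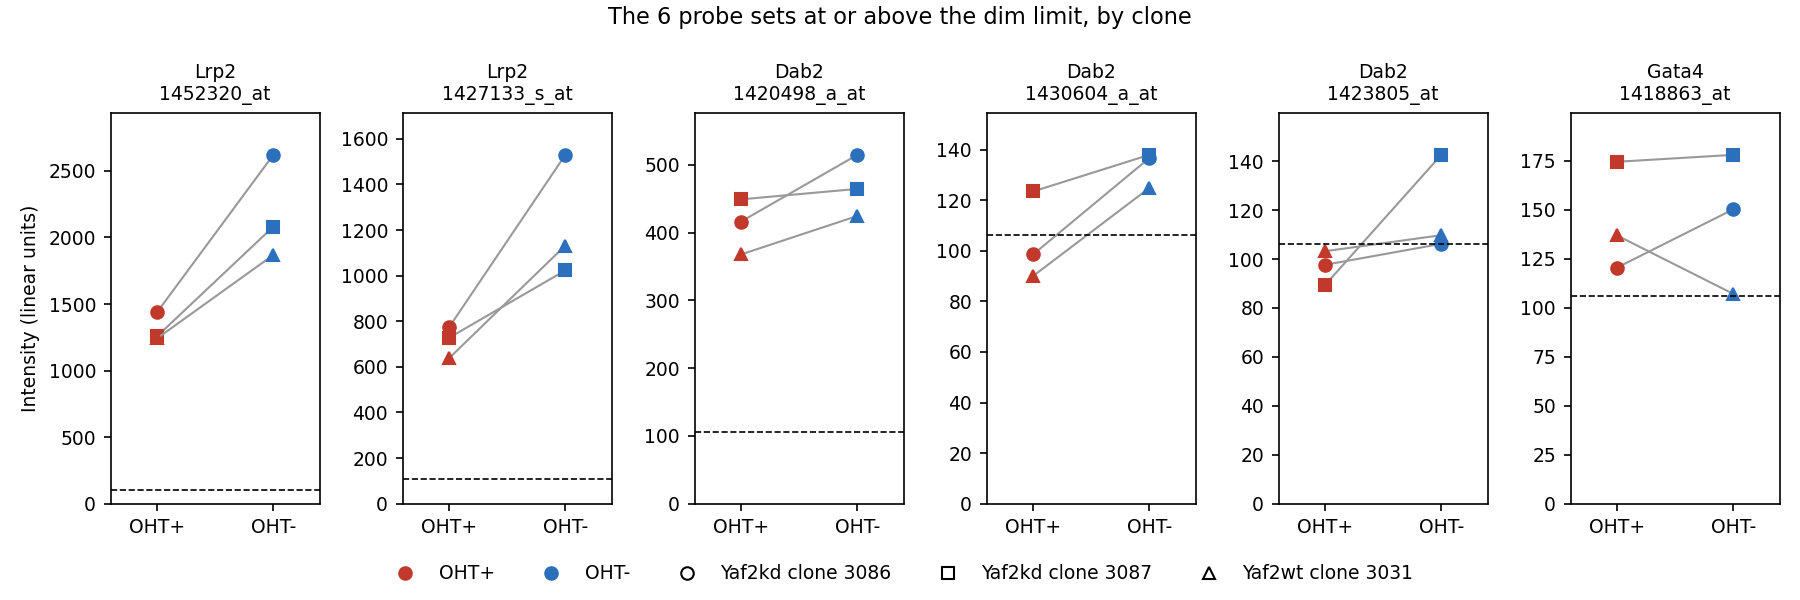
Intensity (linear units, axes starting at 0) of the 6 readable probe sets, with OHT+ left and OHT- right in each panel and a line joining the arrays of a clone. All 3 lines run higher at OHT- for both Lrp2 and all 3 Dab2 probe sets, while the Gata4 lines run in both directions, and the dashed line is the dim limit of 106 units.

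Ttr and Afp encode secreted carrier proteins of the visceral endoderm, transthyretin and alpha-fetoprotein. Their 9 probe sets were the dimmest members, at 0.431 to 42.9 units on every array. Ttr 1459737_s_at read 6.40, 3.15 and 10.9 units in OHT+ clones 3086, 3087 and 3031, against 28.1, 26.1 and 42.9 units in OHT- arrays. The groups did not overlap, and the difference of -2.39 ± 0.34 (SE, adjusted p 0.443) was the most negative of the 28. It rests on 1 of 4 dim Ttr probe sets, far below the limit, and was -1.08 with 16 units added before log2. The other 3 overlapped: Ttr 1454608_x_at read 12.5, 5.80 and 2.92 units in OHT+ clones 3086, 3087 and 3031, against 30.8, 20.1 and 1.99 units in OHT- arrays. The 5 Afp probe sets read 0.431 to 29.8 units. Afp 1416646_at read 4.98, 29.8 and 4.71 units in OHT+ arrays, against 6.09, 6.14 and 13.7 units in OHT- arrays, with 1 high OHT+ array, that of clone 3087.

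Counted over all 28 probe sets, 13 were higher with OHT and 15 lower, with a median difference of -0.0697, against -0.00731 over all probe sets. In 5 of the 28 every OHT+ array lay below every OHT- array, against 6.4% of all probe sets, and in 0 did every OHT+ array lie above, against 6.13%. Of the 6 readable probe sets 4 did not overlap and were lower (Lrp2 2, Dab2 2), against 7.35% of all probe sets at or above the limit. Lower in all 3 clones were 5 of these 6, against 18.9%. These probe sets come from 3 genes, so they do not count as separate genes. In OHT+ arrays the 2 Dab2 probe sets among the 4 averaged 104 and 96.7 units, under the limit. In OHT- arrays they averaged 133 and 120 units. They were thus readable through the group where they were higher, so both counts lean toward lower values.

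**Figure D3:**
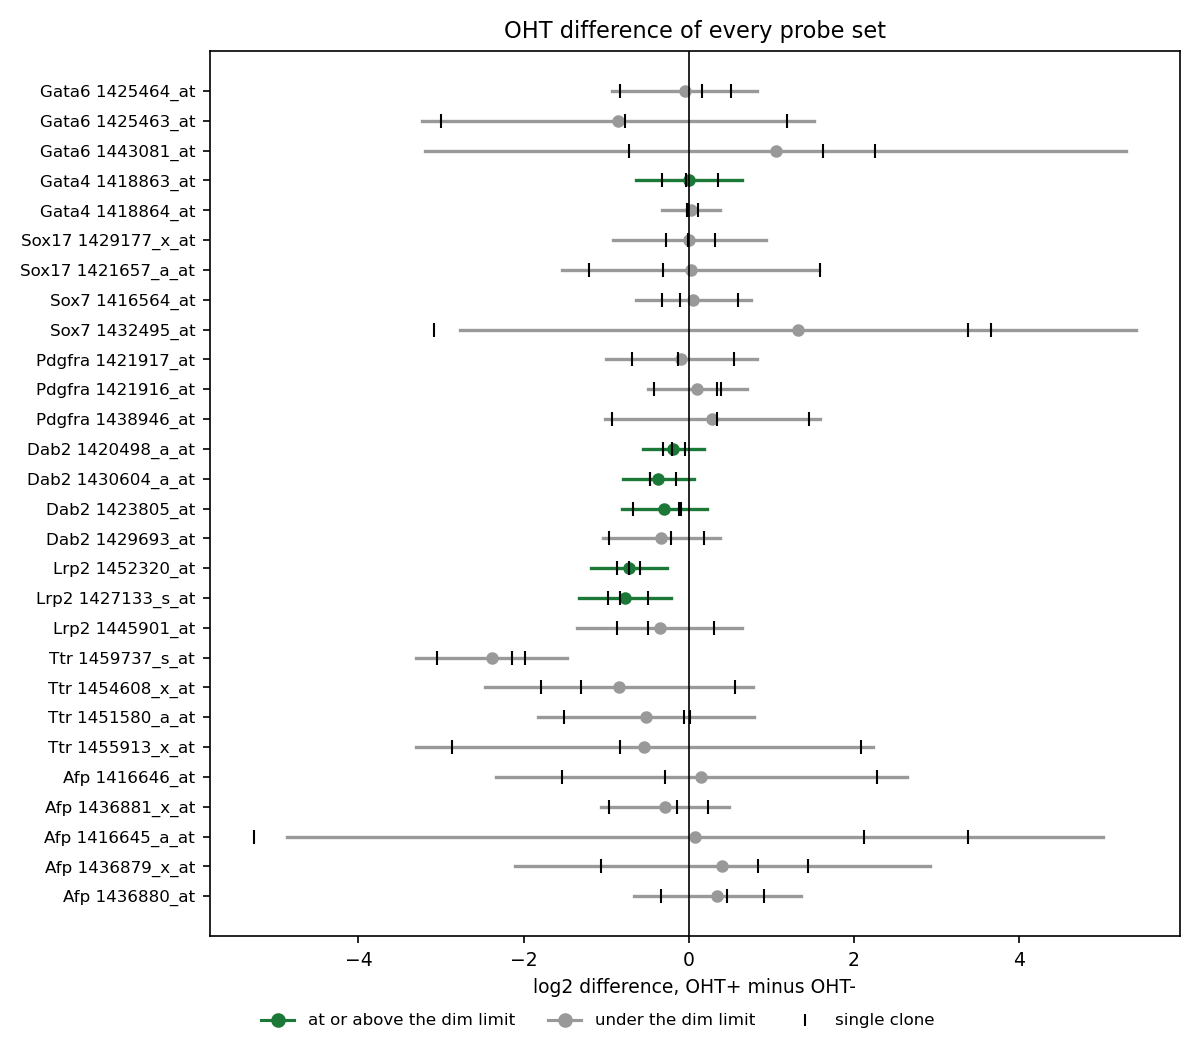
Limma difference (log2, OHT+ minus OHT-) of each of the 28 probe sets with its 95% interval, in green at or above the dim limit and in grey under it, with a tick for each single clone. Intervals lie wholly below 0 for 2 Lrp2 probe sets and 1 dim Ttr probe set, and the widest belong to dim probe sets of Gata6, Sox7 and Afp.

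In the Yaf2kd clones alone, 2 arrays against 2, OHT asked the same where Yaf2 was reduced. These arrays are also in the comparison over 3 clones. Lrp2 1452320_at differed by -0.80 ± 0.24 (SE, adjusted p 0.785) and Lrp2 1427133_s_at by -0.74 ± 0.30 (adjusted p 0.882). Dab2 1420498_a_at differed by -0.18 ± 0.21 and Gata4 1418863_at by -0.17 ± 0.30. Limma called 0 of the 28 (0% of all probe sets), and 2 had an unadjusted p under 0.05, against 6.13% of all probe sets. In the Yaf2wt clone, with 1 array in each state and no replicate, Lrp2 1452320_at was at 1242 units with OHT and 1869 units without, and Gata4 1418863_at at 137 and 107 units. The difference of the OHT effects, Yaf2kd minus Yaf2wt, was -0.21 ± 0.42 (SE, 95% interval -1.46 to 1.05) for Lrp2 1452320_at and 0.0896 ± 0.51 for Lrp2 1427133_s_at. Limma called 0 of the 28 here too (0% of all), with 1 at an unadjusted p under 0.05, against 5.08% of all probe sets. That one was the dim Sox17 1421657_a_at, at -2.36 ± 0.56 (adjusted p 0.759).

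The Yaf2 comparison over both OHT states set the 4 Yaf2kd arrays against the 2 Yaf2wt arrays, which are 2 clones against 1. Limma called 0 of the 28 (0% of all probe sets), and 4 had an unadjusted p under 0.05, against 6.69%. The lowest adjusted p was 0.743. Lrp2 1452320_at differed by 0.22 ± 0.18 (SE), Dab2 1420498_a_at by 0.22 ± 0.14 and Gata4 1418863_at by 0.35 ± 0.25, log2 of Yaf2kd over Yaf2wt. Their 95% intervals were -0.27 to 0.71, -0.17 to 0.61 and -0.33 to 1.03. The fit took the arrays as independent, so these intervals hold no spread between Yaf2wt clones. The size for Gata4 was 0.61 without the Yaf2wt OHT+ array and 0.0832 without the Yaf2wt OHT- array, and that for Lrp2 was 0.32 and 0.12 in the same order. Without clone 3086 it was 0.54 for Gata4 and 0.0868 for Lrp2, and without clone 3087 it was 0.15 for Gata4 and 0.35 for Lrp2. Lrp2 was at 0.13 without the first Yaf2kd OHT- array. All 8 readable feeder markers were higher in Yaf2kd than in Yaf2wt arrays (median 0.38), and 13 of the 17 measured were. The feeder sums, mostly Acta2 signal, were 6573 to 9364 units in Yaf2kd arrays and 4970 and 5791 units in Yaf2wt arrays. The part of feeder cells in the Yaf2 differences was not tested. None of the 6 readable probe sets separated Yaf2kd from Yaf2wt arrays, against 22.5% at or above the limit. Of the 22 dim ones 8 did, 5 higher and 3 lower in Yaf2kd. The share over all probe sets, readable and dim together, was 18.2%.

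The dim probe sets that separated Yaf2kd from Yaf2wt arrays included all 3 of Pdgfra, which did not share 1 direction. Pdgfra 1421917_at averaged 74.1 ± 18.6 units in Yaf2kd (n = 4) and 118 ± 31.0 units in Yaf2wt arrays (SD, n = 2). Pdgfra 1438946_at averaged 47.4 ± 13.3 units in Yaf2kd and 15.2 ± 9.99 units in Yaf2wt arrays, the opposite order. Gata4 1418864_at averaged 64.3 ± 2.52 units in Yaf2kd and 49.6 ± 0.390 units in Yaf2wt arrays, with a difference of 0.37 ± 0.14 (SE, adjusted p 0.743). Both Gata4 probe sets were thus on average higher in Yaf2kd arrays, and on the readable one the groups overlapped.

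Other genes around the lineage were read on 1 probe set each, the brightest of the gene. No gene of these lists passed in the OHT comparison, where limma called 0% of all probe sets. Fractions below are of the genes at or above the dim limit, whose median difference over all 10916 such genes was -0.00826. Among them 8.18% lay wholly above and 8.26% wholly below the OHT- arrays with OHT. The FGF ligand gene Fgf4 and 5 more genes of FGF signalling were all readable, 4 of them higher with OHT and 2 lower, and their median was 0.0850. Fgf4 averaged 4755 ± 705 units in OHT+ and 3709 ± 464 units in OHT- arrays (SD, n = 3 each), without overlap, and the receptor gene Fgfr2 differed by 0.37 ± 0.19 (SE) with overlap.

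Of 5 epiblast factors 4 were higher with OHT and 1 was lower (median 0.35), and 3 did not overlap. Nanog, the homeobox factor that opposes Gata6, averaged 9982 ± 1171 units in OHT+ and 7440 ± 774 units in OHT- arrays (0.42 ± 0.14, SE, adjusted p 0.719). Klf4, a factor of the pluripotent state, differed by 0.90 ± 0.26 and overlapped. Of the other endoderm regulators 7 were measured and 3 readable, all 3 lower, with a median of -0.13. Lefty1, an inhibitor of Nodal signalling, averaged 5052 ± 566 units in OHT+ and 6962 ± 745 units in OHT- arrays, without overlap (-0.46 ± 0.17, SE, adjusted p 0.759). The homeobox gene Hhex differed by -0.13 ± 0.14. Foxa2, Hnf4a, Gata5 and Cer1 were dim.

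Of 13 parietal endoderm and basement membrane genes measured, 12 were readable, 11 of them higher and 1 lower with OHT (median 0.34), and 0 of the 13 passed. There were 9 higher in all 3 clones, against 18.1% of readable genes, and 7 did not overlap. Lama1, a laminin chain, averaged 1079 ± 98.0 units in OHT+ and 783 ± 100.3 units in OHT- arrays. Thbd, thrombomodulin of the parietal endoderm, averaged 153 ± 17.3 units in OHT+ and 101 ± 26.9 units in OHT- arrays. Basement membrane genes are also made by fibroblasts, and all 8 readable feeder markers were higher with OHT, with a median of 0.45 and Col1a1 at 0.67 ± 0.22 (SE). Thbd, Snai1 and the feeder marker Pdgfrb averaged 101, 98.6 and 78.5 units in OHT- arrays, under the limit. They were readable through their OHT+ arrays, so the counts of higher genes in both lists lean toward higher values. The part of feeder cells in these values was not tested.

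Visceral endoderm genes of uptake and secretion did not share one direction. Of 18 measured 9 were readable, 4 higher with OHT and 5 lower (median -0.0556). Rbp4, the carrier of retinol that binds transthyretin, averaged 404 ± 73.5 units in OHT+ and 240 ± 36.3 units in OHT- arrays, without overlap (0.75 ± 0.13, SE, adjusted p 0.523). The apolipoprotein gene Apoa2 differed by -0.30 ± 0.18 and Apoe by 0.16 ± 0.13. Cubn, whose product cubilin pairs with megalin, differed by -0.0556 ± 0.23 (SE). Among partners and paralogues of the members, 7 of 10 were readable, 4 higher and 3 lower. Of the 4, Pdgfrb was readable through its OHT+ arrays. Pdgfrb, the paralogue of Pdgfra and a fibroblast marker, averaged 199 ± 48.2 units in OHT+ and 78.5 ± 20.1 units in OHT- arrays, and the ligand gene Pdgfa 512 ± 16.3 units in OHT+ and 386 ± 43.3 units in OHT- arrays. Pdgfb, another ligand gene, differed by -0.26 ± 0.16.

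**Figure D4:**
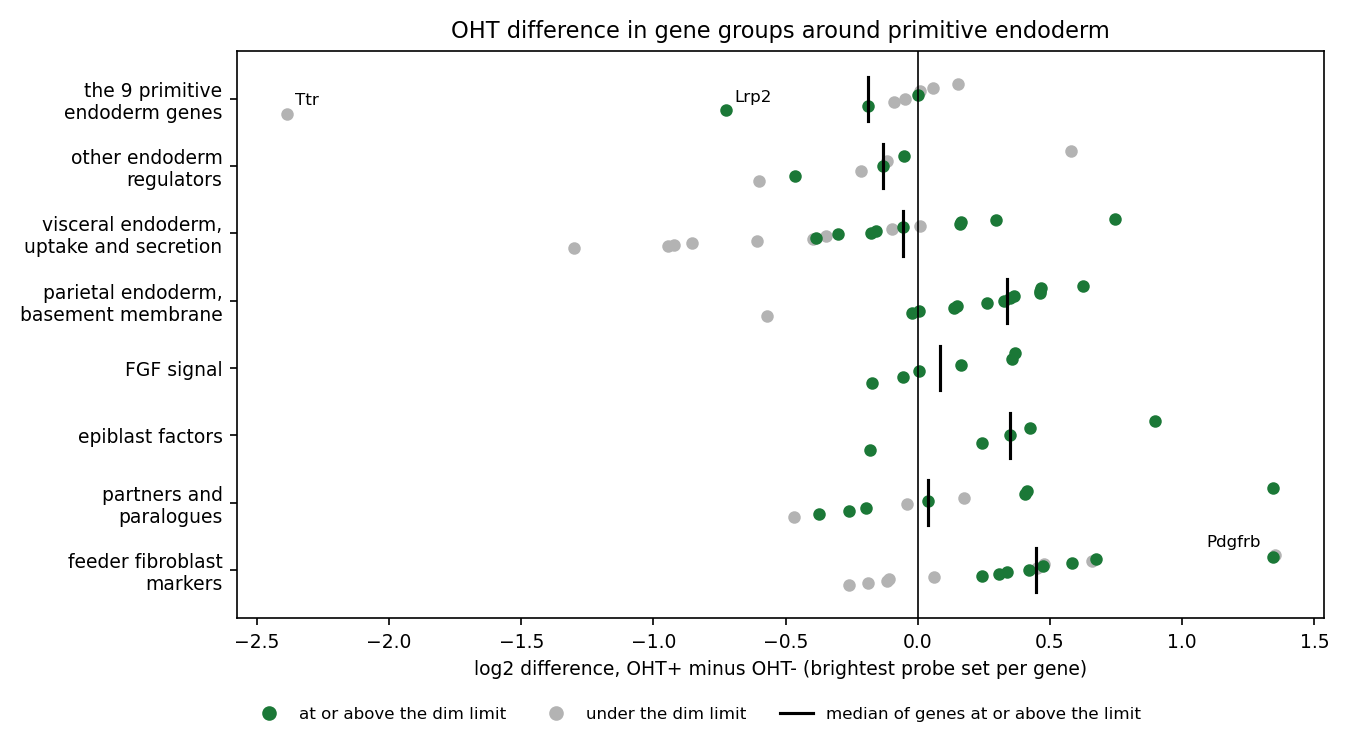
Limma difference (log2, OHT+ minus OHT-) of the brightest probe set of each gene, by list, in green at or above the dim limit and in grey under it, with a bar at the median of the green points. Lrp2 at -0.73 lies below every other readable gene shown, and the parietal, epiblast and feeder medians are 0.34, 0.35 and 0.45.

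The markers of other cell types that such cultures can hold were mostly dim. Of 8 trophectoderm markers 3 were higher and 5 lower (median -0.0237), and of the 4 readable ones 3 were higher and 1 lower (median 0.41), with Krt7 at 370 ± 35.5 units in OHT+ and 204 ± 32.1 units in OHT- arrays and Esx1 at 370 ± 74.8 units in OHT+ and 223 ± 60.7 units in OHT- arrays. The readable Tfap2c differed by 0.0796 ± 0.33 and Eomes by -0.41 ± 0.26 (SE), and the dim Gata3 by -1.06 ± 0.58, while Cdx2 was dim too. Of 6 markers of mesendoderm and definitive endoderm 1 was readable, Eomes, which is shared with the trophectoderm list. Stem cell markers were higher with OHT in 7 of 9 and lower in 2 (median 0.24). All 7 were higher in all 3 clones, against 18.1% of readable genes. With OHT, 4 lay wholly above the OHT- arrays, against 8.18%, and 1 wholly below, against 8.26%. Among them, Fbxo15 differed by 1.36 ± 0.17 (SE) and Utf1 by -0.27 ± 0.15. The stem cell markers Nanog, Pou5f1, Sox2 and Esrrb are also epiblast factors above, and Nanog, Sox2 and Esrrb lay wholly above in both lists. The 2 lists are therefore not separate.

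The genes whose log2 signal followed each readable member most closely over the 6 arrays were ranked by Pearson's r among 10915 other readable genes. For Lrp2 these were Crebl2 (0.992), Pawr (0.988) and Add3 (0.988), and 70 genes reached 0.95 or more. For Dab2 they were Pex14 (0.993), N4bp3 (0.992) and Gna15 (0.991), with 46 genes at that level. For Gata4 they were Aqp11 (0.991), Gpr153 (0.988) and Egfr (0.982), with 21. With 6 points that share clones, treatment and normalization, and a search over so many genes, values of this size describe these arrays only. Crebl2 read 249, 236 and 224 units in OHT+ clones 3086, 3087 and 3031, against 383, 308 and 299 units in OHT- arrays, the same order of arrays within each group as Lrp2 1452320_at.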

How the data were processed

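The deposited table held probe-set intensity for 6 arrays. Affymetrix Expression Console and RMA are named, without versions, in the submitters' processing notes. The authors' values ran from 0.140 to 45795 with a median of 102. All 6 arrays held the same sorted values, as quantile normalization leaves. Log2 values had been planned for, but these are linear, so log2 was taken without a pseudocount. The table held 45101 probe sets, although the series text speaks of 430A 2.0 arrays. After 64 control probe sets were left out, 34945 had 1 gene symbol, 932 several and 9160 none. Each probe set was fitted with limma 3.58.1 in R 4.3.3 (lmFit, eBayes, Benjamini-Hochberg, threshold 0.05): OHT and Yaf2 on all 6 arrays as additive terms, and the Yaf2kd and interaction contrasts in a model of the 4 groups, in which the unreplicated Yaf2wt arrays borrow the spread of the Yaf2kd groups. The scripts were tested on simulated data. Arrays carry no read depth, and their number limits the precision.

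The 9 genes, the other lists and the tests were chosen with earlier results of these data known. Named genes were all members, then, in each other list, genes that passed or else up to 2 highest and 2 lowest readable differences with 1 sign in all clones, plus Rybp, Yaf2 and the 3 closest genes per readable member. Cubn, Eomes, Tfap2c, Gata3, Cdx2, Snai1, Pou5f1, Sox2, Esrrb and the dim regulators were named after their values were seen. The labels pair both arrays of a clone; over readable probe sets the deviations of the Yaf2kd clones with and without OHT correlated at 0.16. Alternatives left out dim probe sets, arrays or clones, kept 1 probe set per gene, added 16 before log2, used an intensity trend or cyclic loess, or blocked on the clone.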

Additional observations from a re-analysis of the deposited data

How the results depend on the processing

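With 1 choice of the processing changed at a time, 0 member probe sets passed in any of the 4 comparisons, also with the clone as a replicate block (0 for OHT over 3 clones, for OHT in Yaf2kd and for the difference of the OHT effects). With dim probe sets left out and an intensity trend, added after seeing the data, 1 member probe set passed for OHT over 3 clones (Lrp2 at -0.73), and 2 without the second Yaf2kd OHT- array (Lrp2 at -0.80 and, on its second probe set, -0.94). Apart from that combination, Lrp2 kept its sign in 16 alternatives, at -0.80 to -0.61 with adjusted p between 0.0715 and 0.872. Ttr was at -1.08 with 16 units added before log2. Dab2 kept its sign in all 17 of its alternatives (-0.26 to -0.13). Signs turned for the OHT differences of 6 genes that did not pass: without clone 3087 Gata6 was at 0.34, Sox17 at -0.15, Pdgfra at 0.21 and Afp at -0.91, and without clone 3031 Gata4 was at -0.17 and Sox7 at -0.22. Leaving out single arrays gave OHT differences of -0.31 to 0.27 for Gata6, -0.17 to 0.21 for Gata4, -0.30 to 0.23 for Sox17, -0.22 to 0.26 for Sox7, -0.41 to 0.23 for Pdgfra and -0.83 to 0.99 for Afp. It gave Yaf2 differences of -0.0142 to 0.43 for Sox17, -0.70 to 0.12 for Sox7, -1.16 to 1.37 for Afp, 0.0832 to 0.61 for Gata4 and 0.12 to 0.32 for Lrp2, and without clone 3087 it was -0.17 for Sox17 and -0.54 for Afp. The cause of these turns was not tested. Dim signal limits what can be read: 22 of the 28 probe sets were under the limit.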
